A study of Mus musculus with 10 samples.

Results

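The expression of 8 genes of the pituitary posterior lobe was followed in bulk RNA from dissected intermediate lobes (IL): Avp and Oxt, which encode the neurohormones vasopressin and oxytocin, Rax, Nkx2-1 and Lhx2, transcription factors of pituicytes, and Gfap, Slc1a3 and Aqp4, genes of astroglia. They were chosen by name, and all 8 of 8 were among the 29527 genes of the deposited table and among the 17268 that passed the filter on low values. Mice were 2 to 3 months old, with 1 library per mouse and 4 mice in the wild-type (WT), 3 in the p27-/- and 3 in the p27-/-;Sox2+/- group. Both mutant groups carry the germline p27 (Cdkn1b) null allele on both chromosomes, and the p27-/-;Sox2+/- group also has 1 functional copy of Sox2 in every cell. The alleles were kept on a mixed background, and males and females were used in all 3 groups. The study asked how Sox2 dosage modifies the development of melanotroph tumors in p27-/- IL, and the posterior lobe itself was not sampled. The values are log2 normalised read counts as deposited, and the differences of genes with few reads are compressed on this scale.

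The posterior lobe is neural tissue that lies against the IL. It holds the axon endings of magnocellular neurons, whose cell bodies sit in the hypothalamus and which release vasopressin and oxytocin into the blood, and pituicytes, the resident glia that surround these endings. RAX, NKX2-1 and LHX2 are homeodomain factors needed to form the infundibulum, from which the posterior lobe grows. The IL is epithelial and consists mainly of melanotrophs, which express Pomc. RNA of Avp and Oxt is known to travel into axons, so that it can be found at a distance from the hypothalamus.

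The melanotroph gene Pomc lay between 18.0 and 19.0 on the log2 scale in all libraries. Cdkn1b ranged from 8.39 to 8.85 in WT, from 8.04 to 8.27 in p27-/- and from 7.73 to 8.10 in p27-/-;Sox2+/-, and Sox2 from 7.34 to 7.75, from 7.08 to 7.45 and from 6.88 to 7.07. Cdkn1b was thus lower in every mutant library than in every WT library, but signal from the gene remained in all mutant libraries, and values per gene do not show which part of the gene it came from. WT replicate 2 had the highest values of the anterior lobe hormone genes Prl, Gh and Cga. Prl was at 17.54 there and between 11.40 and 16.34 in the other 9 libraries, and Gh was at 14.35 against 11.05 to 13.14. The hormone genes Fshb and Tshb were not highest there. Fshb was at 9.24, below 9.61 and 9.64 in WT replicates 3 and 4. Tshb was at 5.55, below 5.71 in p27-/-;Sox2+/- replicate 3. The differences of the 8 genes from WT are given below with and without this library, and so are the other named genes whose call it changes.

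For 7 of the 8 genes, all but Aqp4, the range among the 4 WT libraries was larger than either mutant's difference from the WT mean. The mean was highest in WT for 8 of the 8, yet none passed the threshold (adjusted p under 0.05, limma, adjusted over all tested genes) in any of the 3 comparisons. In all, 3 WT libraries and 1 p27-/-;Sox2+/- library lay above the median of the 10 libraries for all 8, and 1 WT library had values as low as the mutants for most of them. The spread between libraries thus crossed the genotypes. In bulk RNA, fewer cells or axons of a type and less RNA in each cannot be told apart. The paper describes removing the posterior lobe from the IL where cells were dissociated for sorting, single-cell sequencing and sphere assays. For bulk RNA of whole lobes it names only dissected IL. It also reports many more melanotrophs in p27-/- than in WT IL. How much posterior lobe tissue stayed in each library, and its share beside the melanotrophs, was not tested.

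Levels of different genes can be compared only per length of transcript. Per kilobase of the longest transcript, the mean WT level on the log2 scale was 6.84 for Slc1a3, the 64.8th percentile of the 13740 tested genes with a known length. Avp at 6.18, Aqp4 at 6.16 and Oxt at 6.06 lay below it by about the SD of Avp, near the middle of all genes, at the percentiles 49.9, 49.6 and 47.5. These 3 levels lay closer together than the SD of Avp (0.67, n = 4) or Oxt (0.82, n = 4). Gfap at 4.50 and Lhx2 at 4.37 were lower and closer together than the SD of either (0.93 and 0.64, n = 4). Nkx2-1 at 3.67 lay further below Lhx2 than the SD of either gene, and Rax, at 2.79 and the percentile 5.9, further below Nkx2-1 again.

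Avp encodes the precursor of vasopressin, the antidiuretic hormone, and of its carrier neurophysin. The log2 value of Avp was 5.56, 4.40, 5.75 and 5.83 in WT replicates 1 to 4, 4.25, 4.38 and 5.15 in p27-/- and 4.22, 4.20 and 5.24 in p27-/-;Sox2+/- samples. Of the 4 WT libraries, 3 lay above every mutant library, and WT replicate 2 lay among the low mutants, so the groups overlapped. The values fell into a low set of 5 libraries, up to 4.40, and a high set of 5, from 5.15, and the gap between them spanned 46.0% of the whole range. WT had a mean of 5.38 ± 0.67 (SD, n = 4), p27-/- of 4.60 ± 0.48 (SD, n = 3) and p27-/-;Sox2+/- of 4.55 ± 0.59 (SD, n = 3). The difference from WT was -0.79 in p27-/- (95% interval -1.51 to -0.07, adjusted p = 0.169) and -0.83 in p27-/-;Sox2+/- (-1.55 to -0.11, adjusted p = 0.205), neither of which passed the threshold.

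Oxt encodes the precursor of oxytocin, which acts in labour and milk ejection. The log2 value of Oxt was 5.98, 4.04, 5.49 and 5.16 in WT replicates 1 to 4, 4.45, 4.20 and 4.69 in p27-/- and 4.07, 4.06 and 4.55 in p27-/-;Sox2+/- samples. WT replicate 2 had the lowest value of the 10 libraries, while the other 3 WT libraries held the 3 highest. Means were 5.17 ± 0.82 (SD, n = 4), 4.45 ± 0.25 (SD, n = 3) and 4.23 ± 0.28 (SD, n = 3). The log2 difference from WT was -0.72 in p27-/- (95% interval -1.41 to -0.03, adjusted p = 0.189) and -0.94 in p27-/-;Sox2+/- (-1.63 to -0.25, adjusted p = 0.138). WT replicate 2 was no outlier by Dixon's test, but 4 WT values are too few for that test to decide. Its gap to the next WT library was 0.811 of the WT range for Avp and 0.574 for Oxt. For the mean of the 8 genes it was 0.822. The values for Avp and for the mean lay just below the limit for an outlier. Without WT replicate 2, both neurohormones passed the threshold in both mutants. Oxt differed by -1.10 (adjusted p = 0.00627) and -1.31 (adjusted p = 0.00486), and Avp by -1.12 (adjusted p = 0.0215) and -1.16 (adjusted p = 0.0305).

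Avp and Oxt are neighbours on chromosome 2 of GRCm38, at 130580620 to 130582588 and 130574519 to 130577054. They are read towards each other, and 3565 bases lie between their annotated ends. The 250 bases before the transcript start of each, from RefSeq (GRCm38.p6), are shown because these 2 neighbours are the only neurohormone genes among the 8. The Oxt window, chr2:130575919-130576168 on the plus strand, lies inside the annotated span of the gene, which begins at a more distant start. The Avp window is chr2:130582589-130582838 on the minus strand. Capitals mark the hormone response core AGGTCA or its complement TGACCT in Oxt and the canonical E-box CACGTG in Avp.
Oxt: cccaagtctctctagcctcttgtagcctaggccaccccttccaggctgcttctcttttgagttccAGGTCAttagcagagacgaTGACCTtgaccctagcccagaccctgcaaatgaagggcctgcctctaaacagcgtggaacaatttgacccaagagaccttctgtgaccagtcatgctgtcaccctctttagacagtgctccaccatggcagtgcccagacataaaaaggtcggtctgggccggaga
Avp: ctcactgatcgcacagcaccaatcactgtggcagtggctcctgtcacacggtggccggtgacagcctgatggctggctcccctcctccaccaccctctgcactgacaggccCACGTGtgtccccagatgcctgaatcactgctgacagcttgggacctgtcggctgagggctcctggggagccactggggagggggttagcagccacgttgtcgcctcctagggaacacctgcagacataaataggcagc
Counting back from the transcript start, with the base before it as -1, the cores of Oxt begin at -185 and -166 and the E-box of Avp at -139. The hormone response core occurred on either strand in 13.8% of 27025 promoter windows of this length and the E-box in 6.05%. Of the 6 windows searched, those of Avp, Oxt, Nkx2-1, Lhx2, Gfap and Slc1a3, Gfap also held this core, as TGACCT at -85. None of the 6 held the homeodomain core TAATTA (4.90% of all windows), the NKX2-1 core CTCAAG (13.6%), the cyclic AMP response element TGACGTCA (1.62%) or, on the gene's own strand, the TATA box TATAAA (8.12%). Windows were searched on both strands for the other motifs, and no motif shown overlaps another.

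Rax, which marks the retinal and infundibular fields in the embryo and tanycytes and pituicytes later, had log2 values of 3.69, 3.20, 3.58 and 3.64 in WT replicates 1 to 4. It was at 3.19, 3.18 and 3.21 in p27-/- and at 3.14, 3.12 and 3.69 in p27-/-;Sox2+/- samples. WT replicates 1, 3 and 4 and p27-/-;Sox2+/- replicate 3 formed a high set of 4 libraries, divided from the other 6 by a gap of 63.7% of the range. The log2 difference from WT was -0.34 in p27-/- (95% interval -0.64 to -0.04, adjusted p = 0.157) and -0.21 in p27-/-;Sox2+/- (-0.51 to 0.08, adjusted p = 0.451). Without WT replicate 2 the p27-/- difference in Rax was -0.45 and passed the threshold (adjusted p = 0.0450), and the p27-/-;Sox2+/- difference was -0.32 (adjusted p = 0.177). The level of Rax is close to the filter on low values, where the scale is most compressed. Its mean over all libraries, 3.36, passed the filter of 3.32 through the WT mean of 3.53. The means of 3.19 in p27-/- and 3.31 in p27-/-;Sox2+/- lay below the filter. Its p-values are thus no support for a difference.

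Nkx2-1, needed for the ventral forebrain and infundibulum, had log2 values of 5.16, 4.49, 5.29 and 5.74 in WT replicates 1 to 4. In p27-/- it was at 4.43, 4.78 and 4.75, and in p27-/-;Sox2+/- at 4.37, 4.23 and 5.70. A p27-/-;Sox2+/- library thus reached the level of the highest WT library. The log2 difference from WT was -0.52 in p27-/- (95% interval -1.19 to 0.16, adjusted p = 0.341) and -0.40 in p27-/-;Sox2+/- (-1.08 to 0.28, adjusted p = 0.541). Without WT replicate 2 these were -0.74 (adjusted p = 0.136) and -0.63 (adjusted p = 0.265).

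Lhx2, required for pituicytes to form, had log2 values of 5.70, 4.62, 5.90 and 6.03 in WT replicates 1 to 4. In p27-/- it was at 4.63, 4.85 and 5.27, and in p27-/-;Sox2+/- at 4.59, 4.46 and 5.79. The order of libraries was close to that of Nkx2-1, with WT replicate 2 among the low values and p27-/-;Sox2+/- replicate 3 among the high ones. Its log2 difference was -0.65 in p27-/- (95% interval -1.37 to 0.08, adjusted p = 0.260) and -0.62 in p27-/-;Sox2+/- (-1.34 to 0.11, adjusted p = 0.363). Without WT replicate 2 the first was -0.96 (adjusted p = 0.0494), past the threshold, and the second -0.93 (adjusted p = 0.0854). Lhx2 overlaps 2 lncRNA genes, Gm27197 and Gm13584, in the annotation, and reads were counted without strand, so that reads of overlapping genes cannot be told apart.

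**Figure D1:**
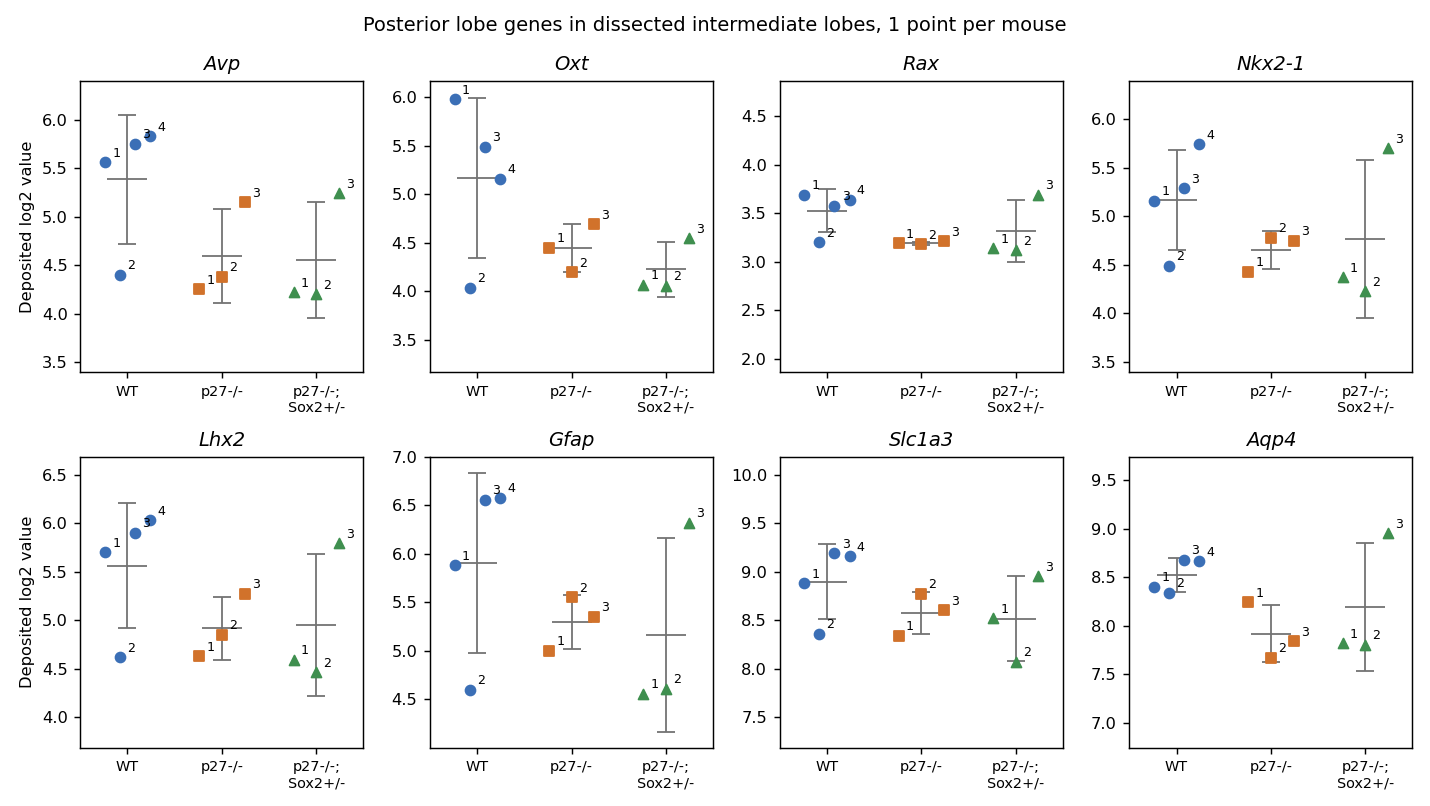
Log2 normalised read count (vertical axis, 3 log2 units in every panel) of each gene in WT (circles), p27-/- (squares) and p27-/-;Sox2+/- (triangles) IL, with 1 point per mouse, its replicate number beside it, and the group mean ± SD as a bar. WT replicate 2 lies among the low mutant values for 7 genes, and p27-/-;Sox2+/- replicate 3 lies near the WT values for most of them; WT and p27-/- separate only for Aqp4.

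Gfap encodes the intermediate filament of astrocytes and reactive glia and had the widest range of the 8, from 4.56 to 6.58. It was at 5.88, 4.60, 6.56 and 6.58 in WT replicates 1 to 4, at 5.0, 5.55 and 5.35 in p27-/- and at 4.56, 4.61 and 6.32 in p27-/-;Sox2+/- samples. The SD was 0.93 in WT (n = 4), 0.28 in p27-/- (n = 3) and 1.00 in p27-/-;Sox2+/- (n = 3). The log2 differences of -0.61 in p27-/- (95% interval -1.59 to 0.37, adjusted p = 0.447) and -0.75 in p27-/-;Sox2+/- (-1.72 to 0.23, adjusted p = 0.415) were smaller than the SD of WT. They were -1.04 (adjusted p = 0.0942) and -1.18 (adjusted p = 0.0959) without WT replicate 2.

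Slc1a3 encodes the glutamate transporter GLAST of astroglia. It was at 8.88, 8.36, 9.19 and 9.16 in WT replicates 1 to 4, at 8.34, 8.77 and 8.60 in p27-/- and at 8.52, 8.07 and 8.95 in p27-/-;Sox2+/- samples. Its log2 difference from WT was -0.33 in p27-/- (95% interval -0.78 to 0.12, adjusted p = 0.365) and -0.38 in p27-/-;Sox2+/- (-0.83 to 0.07, adjusted p = 0.369), about the size of the WT SD of 0.39 (n = 4). Without WT replicate 2 they were -0.51 (adjusted p = 0.102) and -0.56 (adjusted p = 0.110).

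Aqp4 encodes the water channel of glial endfeet. It was at 8.40, 8.34, 8.68 and 8.66 in WT replicates 1 to 4, at 8.24, 7.67 and 7.84 in p27-/- and at 7.82, 7.80 and 8.95 in p27-/-;Sox2+/- samples. Aqp4 was the 1 gene of the 8 whose WT and p27-/- samples did not overlap, as for 20.6% of all tested genes, and the 1 gene for which WT replicate 2 was close to the other WT libraries. None of the 8 separated WT from p27-/-;Sox2+/-, against 15.0% of all tested genes. The log2 difference from WT was -0.60 in p27-/- (95% interval -1.10 to -0.10, adjusted p = 0.130) and -0.33 in p27-/-;Sox2+/- (-0.83 to 0.17, adjusted p = 0.487). Without p27-/-;Sox2+/- replicate 3, which held the highest Aqp4 value of all 10 libraries, these were -0.60 (adjusted p = 0.0229) and -0.71 (adjusted p = 0.0463), and both passed. In a fit of WT and p27-/- alone, the p27-/- difference in Aqp4 also passed (adjusted p = 0.0390). Without WT replicate 2 the differences were -0.66 (adjusted p = 0.116) and -0.39 (adjusted p = 0.417). The lncRNA gene A830021F12Rik overlaps Aqp4.

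Over the 8 genes, p27-/- against WT gave 0 calls in limma, where 7.78% of all tested genes were called. There were 4 genes with an unadjusted p under 0.05 (Aqp4, Rax, Avp and Oxt), where 24.1% of all tested genes had one. Rax is in this count although its mean in each mutant group lay below the filter. All 8 estimates were lower than WT, with a median log2 difference of -0.61 beside 0.01 for all tested genes, of which 48.4% had a lower estimate. For p27-/-;Sox2+/- against WT there were again 0 calls, with 2.71% of all tested genes called, and 2 genes with an unadjusted p under 0.05 (Oxt and Avp), with 17.8% of all tested genes. All 8 estimates were lower here too, with a median of -0.51 beside 0.01. These comparisons share the 4 WT libraries, so their common direction is no independent evidence. The 8 genes were also high or low together from library to library, so they are not 8 separate observations.

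Between the mutants no difference in the 8 genes was detectable. p27-/-;Sox2+/- against p27-/- gave 0 calls, with 0.145% of all tested genes called, and 0 genes with an unadjusted p under 0.05, with 6.65% of all tested genes. Estimates were lower for 4 genes and higher for the other 4, with a median of -0.01, and lay between -0.22 for Oxt (95% interval -0.96 to 0.52) and 0.27 for Aqp4 (-0.26 to 0.80). For Avp the interval ran from -0.81 to 0.73 and for Gfap from -1.18 to 0.91. Differences of that size between the mutants remain possible.

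**Figure D2:**
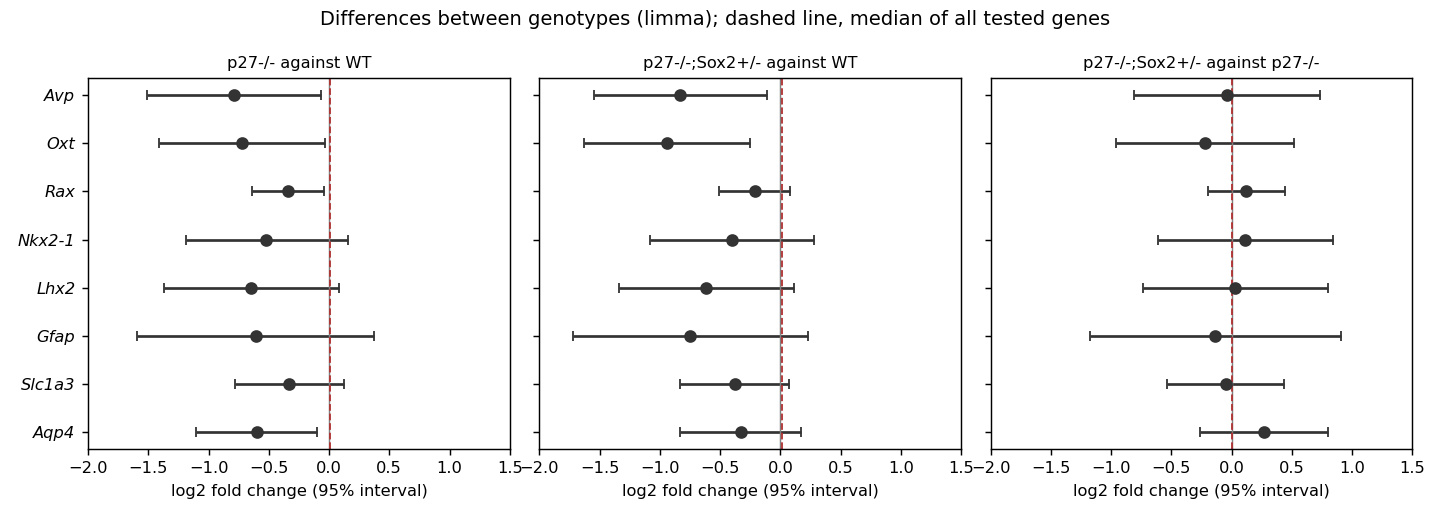
Log2 fold change of each gene with its 95% interval (horizontal axis) in the 3 comparisons of genotypes, with the median of all tested genes as a dashed line near 0. Every estimate against WT is below 0, between -0.94 and -0.21, whereas estimates between the mutants lie on both sides of 0.

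The 8 genes were high or low together in the same libraries. WT replicates 1, 3 and 4 and p27-/-;Sox2+/- replicate 3 had 8 of 8 genes above the gene's median over the 10 libraries. In p27-/-;Sox2+/- replicates 1 and 2 and p27-/- replicate 1 it was 0 of 8, in WT replicate 2 it was 1 of 8, and in p27-/- replicates 2 and 3 it was 3 and 4 of 8. With each gene centred on its mean over the libraries, the mean of the 8 ran from -0.42 in WT replicate 2 to 0.67 in WT replicate 4, from -0.36 to -0.07 in p27-/- and from -0.61 to 0.47 in p27-/-;Sox2+/-. The p27-/- libraries thus spanned the narrowest range, and the WT and p27-/-;Sox2+/- ranges each covered it.

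The neurohormones and the glial genes did not rank the libraries in the same way. WT replicate 1 had the highest mean of Avp and Oxt, 0.99, with the pituicyte transcription factors at 0.37 and the astroglial genes at 0.24. p27-/-;Sox2+/- replicate 3 showed the opposite balance, with 0.11 for the neurohormones against 0.58 and 0.60. WT replicate 4 had like values of 0.71, 0.66 and 0.66.

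Markers of other tissue moved with part of this pattern. Of the 8 oligodendrocyte and Schwann markers, the 3 that passed the filter had a centred mean of 0.95 in WT replicate 4, 0.61 in WT replicate 3 and 0.39 in p27-/-;Sox2+/- replicate 3, and of -0.57 in WT replicate 2. WT replicate 1, high in all 8 posterior lobe genes, was at -0.14. The linear sum of these 3 markers was 399 to 1400 in WT, 574 to 666 in p27-/- and 438 to 776 in p27-/-;Sox2+/- samples, and none of the 8 markers was listed at 0, with values down to 2.05 for Olig2. The 9 tested anterior lobe markers of 10 had a centred mean of 1.37 in WT replicate 2. Their linear sum reached 223000 there, against 7100 to 96400 in p27-/- and 11100 to 29100 in p27-/-;Sox2+/-. Prl, at 17.54 on the log2 scale, was the largest term of that sum, and it was at 16.34 in p27-/- replicate 1. WT replicate 2 was low in 7 of the 8 posterior lobe genes. Of the 9 anterior lobe markers, Fshb alone was called in limma. It was lower than WT by -2.04 in p27-/- (adjusted p = 0.028) and by -2.27 in p27-/-;Sox2+/- (adjusted p = 0.0294). The centred mean of the 4 tested melanotroph markers was highest in p27-/- replicate 2, at 0.28, and lowest in WT replicate 2, at -0.27. WT replicate 4, which had the highest mean of the 8 posterior lobe genes, was at -0.26. Endothelial markers were lower in p27-/- for 8 of 8 estimates and in p27-/-;Sox2+/- for 7 of 8, with 2 calls in each, Kdr (-0.83, adjusted p = 0.00966, and -0.67, adjusted p = 0.0459) and Flt1 (-0.75, adjusted p = 0.0290, and -0.80, adjusted p = 0.0379). Their centred mean was -0.05 to 0.41 in WT, -0.32 to -0.01 in p27-/- and -0.27 to 0.15 in p27-/-;Sox2+/-. WT replicate 1 had the highest macrophage and microglia mean, 0.52, and the highest fibroblast and mural mean, 0.44, with an endothelial mean of 0.36. The macrophage and microglia mean was otherwise -0.31 to 0.19, and the fibroblast and mural mean -0.52 to 0.28. Estimates against WT were lower in both mutants for 8 of 8 macrophage and microglia and 3 of 3 oligodendrocyte and Schwann markers. For fibroblast and mural markers they were lower for 5 of 8 in p27-/-, with 1 call, and for 8 of 8 in p27-/-;Sox2+/-. Those of the melanotroph markers were lower for 0 of 4 and 1 of 4, and of the anterior lobe markers for 6 of 9 and 7 of 9. Stem cell markers had a mean of 0.06 to 0.44 in WT, -0.34 to -0.12 in p27-/- and -0.25 to 0.03 in p27-/-;Sox2+/-, with Lcn2 called lower in the last (-1.71, adjusted p = 0.0209). In p27-/- the estimates of all 5 tested stem cell markers were lower, with a median of -0.36. In p27-/-;Sox2+/- they were lower for 3 and higher for 2, with a median of -0.08. The part of these tissues in the differences of the 8 genes was not tested.

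**Figure D3:**
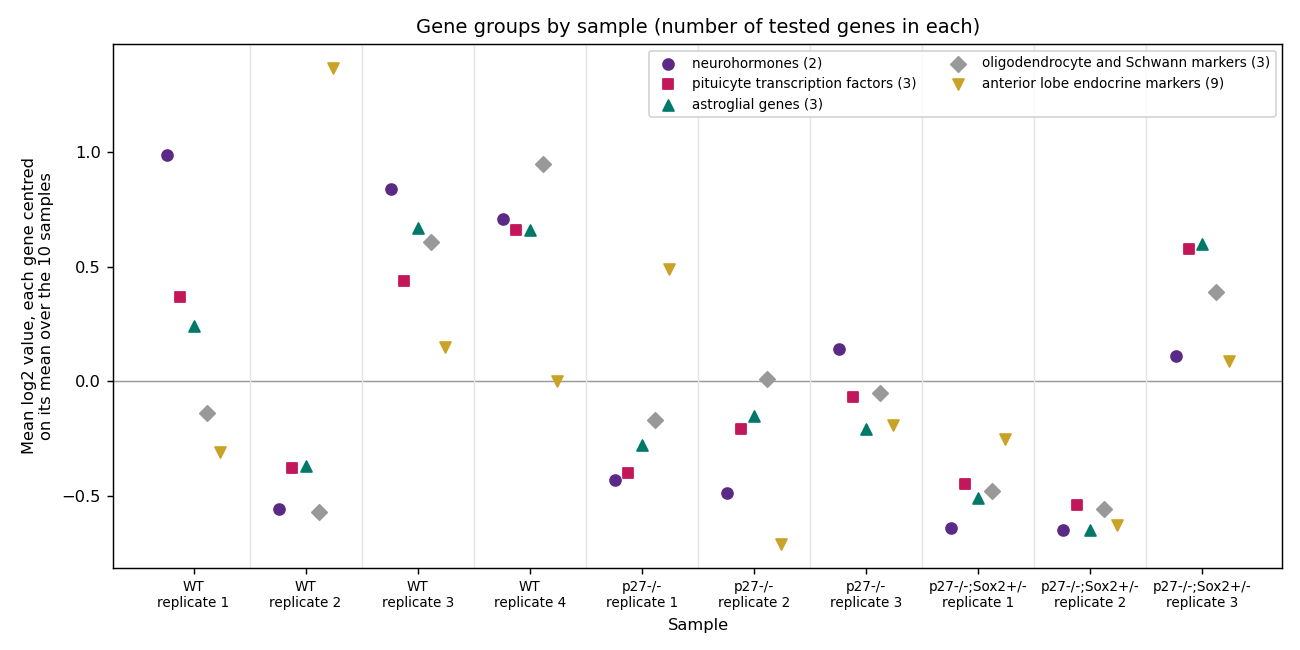
Mean log2 value of 3 groups of posterior lobe genes and of 2 groups of markers of other tissue (vertical axis, each gene centred on its mean over the 10 samples) in each sample (horizontal axis). The 3 posterior lobe groups lie above 0 in WT replicates 1, 3 and 4 and in p27-/-;Sox2+/- replicate 3, while WT replicate 2 has the highest anterior lobe mean, 1.37.

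The relation between pairs of genes was tested over the 10 libraries for the 6 genes whose values did not fall into separate sets. Avp and Rax, with a gap of more than 40% of the range, were left out, a limit set after the values were seen, and no correlation is given for them. All 15 pairs of the other 6 had a positive r, from 0.53 for Oxt and Aqp4 to 0.96 for Lhx2 and Gfap, with a median of 0.79. A permutation test (100000 resamples, two-sided) with Benjamini-Hochberg adjustment over the 15 pairs called 12 of them by Pearson's r and 14 by Spearman's rho.

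Nkx2-1 and Lhx2, both pituicyte transcription factors, had r = 0.95 (permutation p = 6e-05, adjusted p = 0.000412) and rho = 0.96 (permutation p = 4e-05, adjusted p = 0.000600). For Lhx2 and Gfap, r was 0.96 (permutation p = 7e-05, adjusted p = 0.000412) and rho 0.95 (permutation p = 0.00012, adjusted p = 0.000900). For Oxt, the one neurohormone tested, the relation with Lhx2 had r = 0.81 (permutation p = 0.00333, adjusted p = 0.00714) and rho = 0.84 (permutation p = 0.0035, adjusted p = 0.00750). Leaving out the 2 samples farthest from the median of the first gene gave r = 0.97 for Nkx2-1 and Lhx2, 0.92 for Lhx2 and Gfap and 0.88 for Oxt and Lhx2, and 10 of the 15 pairs passed the threshold by r and 7 by rho.

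Within genotypes, after each group's mean was removed and values were permuted within the groups, all 15 values of r were still positive, from 0.35 to 0.96, and 6 pairs passed an exact permutation test. These 6 were the pairs among Nkx2-1, Lhx2, Gfap and Slc1a3, for example Nkx2-1 and Lhx2 with r = 0.94 (exact permutation p = 0.00231, adjusted p = 0.0174). Oxt and Lhx2 had r = 0.74 within genotypes and did not pass (exact permutation p = 0.0498, adjusted p = 0.107). No library date or batch was given in the labels.

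**Figure D4:**
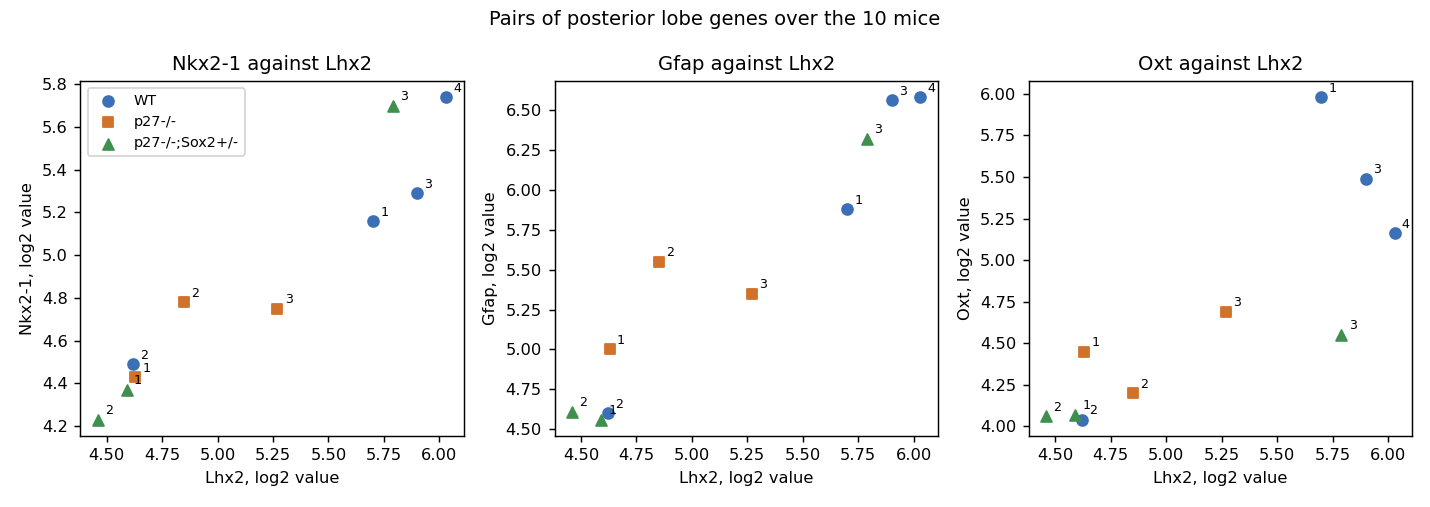
Log2 values of Nkx2-1, Gfap and Oxt (vertical axes) against Lhx2 (horizontal axes), with 1 point per mouse, coloured and shaped by genotype, with replicate numbers. Nkx2-1 and Gfap follow Lhx2 closely over the 10 mice (r of 0.95 and 0.96), and Oxt follows it less tightly (r of 0.81), with WT replicate 1 high in Oxt for its Lhx2 level.

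The genes most like the members from mouse to mouse were listed among the 14854 tested genes with a symbol, by Pearson's r over the 10 samples with genotype means removed. They were picked as the highest values, so no test applies. Closest to the mean of Rax, Nkx2-1 and Lhx2 were Col23a1 (r = 0.979), Tbx3 (0.977), Col25a1 (0.977), Fndc3c1 (0.976), Lrp2 (0.974), Spon1 (0.973), Slc1a2 (0.968), Scn7a (0.963), Gpr50 (0.962) and A2m (0.957). Fndc3c1 had the widest range of these, from 6.30 in p27-/-;Sox2+/- replicate 2 to 10.88 in WT replicate 4. Slc1a2, the glutamate transporter GLT-1, was at 5.91, 5.88 and 8.75 in the p27-/-;Sox2+/- samples, a spread larger than any difference between group means reported above. Tbx3, Col25a1 and Scn7a also stood in the list of pituicyte and infundibular genes, and Slc1a2 in that of astroglial genes.

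Closest to the mean of Avp and Oxt were Sema6a (r = 0.971), Ptprt (0.964), Mfsd2a (0.958), Cyba (0.958), Lrrtm3 (0.954), Adamts5 (0.949), Cntfr (0.942), Lgr6 (0.939), Lsm11 (0.936) and Cysltr1 (0.933). Sema6a ranged only from 9.33 to 9.98, and Cysltr1 from 5.22 to 7.35. The lists of 10 shared 0 genes. With genotype means kept, 7 of the 10 closest to the transcription factors and 6 of the 10 closest to the neurohormones were the same genes.

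Other genes of the posterior lobe were taken from 5 lists with 58 genes, of which 42 were tested. Some also belong to cells of the IL. Pcsk2 stood among the melanotroph markers as well and Sox9 among the stem cell markers. The counts below are thus not of posterior lobe cells alone. In p27-/- against WT, 9 of the 42 passed the threshold, 2 higher and 7 lower, beside 7.78% of all tested genes, and the median log2 difference was -0.29 beside 0.01. In p27-/-;Sox2+/- against WT, 4 passed, 1 higher and 3 lower, beside 2.71% of all tested genes, with a median of -0.15. Between the mutants 0 passed in limma and 8 had an unadjusted p under 0.05, beside 0.145% and 6.65% of all tested genes. With array weights, which give less weight to variable libraries, the counts for p27-/-;Sox2+/- were 12 against WT and 4 against p27-/-. Single libraries moved these counts: the 9 became 3 without p27-/- replicate 3, 4 without p27-/- replicate 2 or WT replicate 4, and 5 without WT replicate 3 or p27-/-;Sox2+/- replicate 1. The 4 became 8 without WT replicate 2, 7 without p27-/-;Sox2+/- replicate 3, and 1 without p27-/-;Sox2+/- replicate 1 or 2 or WT replicate 3, and the 0 became 1 without WT replicate 3.

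The astroglial genes held 6 of the 7 lower calls in p27-/- and 1 of the 3 in p27-/-;Sox2+/-. Of 18 tested, 6 were lower in p27-/-, among them Glul, Mlc1, Slc4a4 and Vim, and 1 in p27-/-;Sox2+/- (Mlc1). The median differences were -0.50 and -0.41. Of all tested genes, 7.78% and 2.71% were called in these comparisons, in either direction.

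Glul, glutamine synthetase, fell in p27-/- (log2 difference -0.71, limma adjusted p = 0.00469), with values of 9.50 to 9.92 against 10.26 to 10.67 in WT. Mlc1, a membrane protein of astrocyte endfeet, differed from WT by -0.89 in p27-/- (adjusted p = 0.0442) and by -1.14 in p27-/-;Sox2+/- (adjusted p = 0.0266). The p27-/- calls of Slc4a4, a bicarbonate transporter (-1.03, adjusted p = 0.0470), and of Vim, vimentin (-0.60, adjusted p = 0.0491), lay close to the threshold and were lost in several alternatives, as was that of Mlc1. Vim differed by -0.67 in p27-/-;Sox2+/- (adjusted p = 0.0562) and passed there without WT replicate 2 (-0.81, adjusted p = 0.0151). These followed the members only in part: WT replicate 2 was at 7.63 for Slc4a4, beside 8.53 to 8.79 in the other WT libraries, but at 10.26 for Glul, near the rest.

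Of the 8 tested pituicyte and infundibular genes, 0 passed the threshold against WT in either mutant, beside 7.78% and 2.71% of all tested genes. An unadjusted p under 0.05 was found for 2 and 3 of the 8, beside 24.1% and 17.8% of all tested genes. The median differences were -0.47 and -0.55. Adm, adrenomedullin, differed by -0.51 in p27-/-;Sox2+/- (limma adjusted p = 0.0531) and Fgf10, an infundibular growth signal, by -1.17 in p27-/- (adjusted p = 0.0831). Tbx3, a transcription factor of the infundibulum, differed by -0.84 (adjusted p = 0.172) and Col25a1, a collagen, by -1.23 (adjusted p = 0.300) in p27-/-;Sox2+/-. Col25a1 was at 8.84, 7.03, 9.31 and 9.73 in WT replicates 1 to 4, so that its WT spread alone covered most of the p27-/-;Sox2+/- range of 6.60 to 9.11. Six6, an eye and pituitary homeodomain factor, had its smallest p between the mutants (-0.16, adjusted p = 0.887). The count of 0 did not hold in every setting. With WT replicate 2 left out, Adm passed in p27-/- (-0.42, adjusted p = 0.0220) and in the p27-/-;Sox2+/- group (-0.64, adjusted p = 0.00558), Fgf10 in p27-/- (-1.46, adjusted p = 0.0261) and Tbx3 in the p27-/-;Sox2+/- group (-1.11, adjusted p = 0.0435). Without p27-/-;Sox2+/- replicate 3, Fgf10 in p27-/- (adjusted p = 0.0408) and Tbx3 in p27-/-;Sox2+/- (-1.28, adjusted p = 0.0363) passed, and with array weights Adm (adjusted p = 0.0234) and Tbx3 (adjusted p = 0.0418) passed in p27-/-;Sox2+/-.

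Of the 7 tested magnocellular neuron and axon genes, 1 passed in each mutant, beside 7.78% and 2.71% of all tested genes. Pdyn, which encodes prodynorphin and is made by vasopressin neurons among many other cells, was at 7.82, 7.76, 7.89 and 7.84 in WT replicates 1 to 4, at 8.77, 8.98 and 8.97 in p27-/- and at 8.51, 8.73 and 8.63 in p27-/-;Sox2+/- samples. Pdyn rose in p27-/- by a log2 difference of 1.08 (limma adjusted p = 5.33e-05) and in p27-/-;Sox2+/- by 0.79 (adjusted p = 0.00118), opposite in sign to Avp. WT replicate 2 did not stand apart for Pdyn. Gal, galanin, was at 4.49 to 4.56 in p27-/-;Sox2+/- and at 5.03 to 6.25 in p27-/- samples, a log2 difference of -1.07 that did not pass (adjusted p = 0.333) except with array weights (-1.13, adjusted p = 0.0433). Against WT, Gal differed by -0.98 in p27-/-;Sox2+/- (adjusted p = 0.0917) and passed without WT replicate 4 (-1.27, adjusted p = 0.0207). Nefl, a neurofilament, differed from WT by -0.34 in p27-/- (adjusted p = 0.322), Cartpt, a neuropeptide precursor, by -0.37 (adjusted p = 0.403) and Caprin2, an RNA-binding protein, by 0.12 in p27-/-;Sox2+/- (adjusted p = 0.609).

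Of the receptors, Avpr1b, the pituitary vasopressin receptor, was at 4.61 to 4.81 in p27-/-;Sox2+/- and at 4.13 to 4.32 in p27-/- samples, a log2 difference of 0.48 (limma adjusted p = 0.270). Oxtr, the oxytocin receptor, differed by -0.43 between the mutants (adjusted p = 0.554), and Lnpep, an aminopeptidase that clears oxytocin and vasopressin, by -0.09 in p27-/- against WT (adjusted p = 0.540). None of the 3 receptor and clearance genes tested passed in the fit of all samples. Oxtr passed in p27-/-;Sox2+/- against WT without WT replicate 2 (-0.53, adjusted p = 0.0332, and -0.40 with adjusted p = 0.168 with it). Avpr1b passed with array weights between the mutants (adjusted p = 0.0241) and in p27-/- against WT (-0.43, adjusted p = 0.0249), and without WT replicate 3 in the latter (-0.47, adjusted p = 0.0315). Avpr2, the renal receptor, and Oprk1, the receptor for dynorphins, were below the filter.

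Of the 6 neuropeptide processing enzymes, 2 passed in each mutant against WT, beside 7.78% and 2.71% of all tested genes. These enzymes also serve melanotrophs, which process Pomc with them. Pcsk1, a prohormone convertase, was at 8.98 to 9.10 in WT and fell in p27-/- (log2 difference -0.45, limma adjusted p = 0.0206). It also fell in the p27-/-;Sox2+/- group (-0.42, adjusted p = 0.0498), a call that was lost in several alternatives. Pcsk2, the convertase that predominates in melanotrophs, rose in p27-/- by 0.53 on the log2 scale (adjusted p = 0.0352). The p27-/- call of Pcsk2 (0.48, adjusted p = 0.0598) and the p27-/-;Sox2+/- call of Pcsk1 (-0.41, adjusted p = 0.0679) were lost without WT replicate 2, among other settings. Pam, the amidating enzyme that completes both neurohormones, fell in p27-/-;Sox2+/- (log2 difference -0.42, adjusted p = 0.0301) and differed by -0.28 in p27-/- (adjusted p = 0.0787). Cpe, a carboxypeptidase, differed by -0.28 between the mutants (adjusted p = 0.821) and Scg5, a chaperone of Pcsk2, by 0.24 in p27-/- against WT (adjusted p = 0.398).

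**Figure D5:**
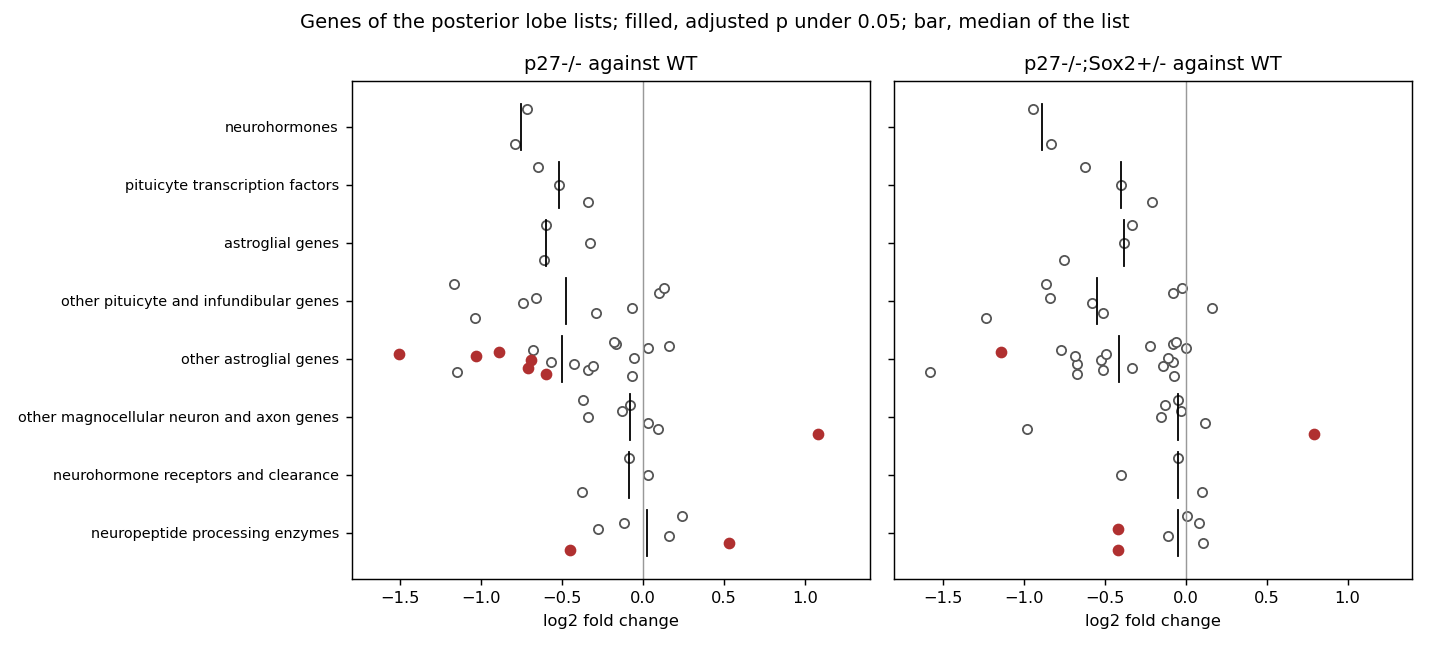
Log2 fold change against WT (horizontal axis) of each tested gene of the 3 groups of members and the 5 lists of other posterior lobe genes (rows), with filled points for adjusted p under 0.05 in limma and a bar at the median of each row. The neurohormone row has the lowest medians, -0.76 in p27-/- and -0.89 in p27-/-;Sox2+/-. The medians of the glial rows lie between -0.60 and -0.38. Those of the rows of other magnocellular and axon, receptor and enzyme genes lie near 0. The 1 filled point far to the right in each panel is Pdyn.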

How the data were processed

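RNA of dissected IL was sequenced from 10 mice grouped by the genotype in the labels. The authors aligned reads with STAR 2.5.2a, counted genes with RSEM 1.3.30 on the Ensembl transcriptome of GRCm38 without strand, normalised with DESeq2 1.18.1 and deposited log2 values for 29527 genes, in a transformation not given in the sources used here. The table holds no counts, so depth is unknown and precision rests on how many mice there were. Genes with a mean of at least log2(10) were tested, 17268 in all, with limma 3.58.1 in R 4.3.3 (1 fit of 3 genotypes, eBayes with trend, Benjamini-Hochberg adjustment, threshold 0.05), which was tested on simulated data. Correlations, planned for all pairs of the 8 genes and run for 15 of them, used permutation tests in numpy 2.4.6 and scipy 1.17.1 under Python 3.11.15, with pandas 2.3.3 and figures in matplotlib 3.10.9. The posterior lobe genes and lists were chosen with earlier results of these data known. The text names the 8 genes, up to 5 genes of each list with the smallest p in any comparison, and the 10 genes most like each of 2 means of members. Alternatives changed the filter (none, or a mean of at least 50), the samples (each left out in turn, or a fit of 2 groups), the scaling (quantile normalization or median centring) and the model (array weights, no trend, Xist as a covariate, or a block for the replicate number), and, for correlations, removed genotype means. Positions and promoter windows are those of RefSeq for GRCm38.p6, matched by symbol. All 8 genes had a position, and 6 promoter windows were searched. Transcript lengths came from GENCODE M1 on NCBIM37, matched by gene identifier. Windows of Rax and Aqp4 were not used here, and values of some genes in the lists are not reported here.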

Additional observations from a re-analysis of the deposited data

How the results depend on the processing

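The estimates of the 8 genes against WT kept their direction in both mutants under every alternative in which they were fitted. With a mean of at least 50 only Slc1a3 and Aqp4 were fitted. Between 0 and 4 of the 8 genes were called in p27-/- when 1 sample was left out. The count was 4 without WT replicate 2, where 1543 of the 17268 tested genes were called. The 4 include Rax, whose mutant means lay below the filter. It was 1 without p27-/-;Sox2+/- replicate 3 (1233 of all tested genes) and 1 in a fit of only the 2 groups (807). In p27-/-;Sox2+/- the range was 0 to 2. The count was 2 without WT replicate 2 (588 of all tested genes) and 1 without p27-/-;Sox2+/- replicate 3 (240). Between the mutants it was 0 throughout. The other posterior lobe genes called in p27-/- numbered 3 to 11 with 1 sample left out, 5 with no filter, 4 with the replicate block and 5 with Xist as a covariate. In p27-/-;Sox2+/- they were 1 to 8 with 1 sample left out, 1 with only the 2 groups and 12 with array weights, and between the mutants 0 to 1, 1 and 4. Over all tested genes, the 1343 calls in p27-/- became 831 with no filter, 807 with only the 2 groups, 595 with the replicate block and 403 to 1709 with 1 sample left out. The 468 in p27-/-;Sox2+/- became 312, 260, 209 and 80 to 658, and 1240 with array weights, and the 25 between the mutants became 6, 45, 2 and 0 to 41, and 283. The 25 also became 17 with a mean of at least 50, 8 with no trend and 15 with quantile normalization. The 15 correlated pairs gave 8 to 13 calls with 1 sample left out and 6 with genotype means removed.

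Estimates between the mutants that changed sign were small. With array weights Nkx2-1 was at -0.208 and Lhx2 at -0.269. With 1 sample left out the ranges were -0.39 to 0.23 for Avp, -0.064 to 0.222 for Rax, -0.35 to 0.38 for Nkx2-1, -0.39 to 0.27 for Lhx2, -0.72 to 0.16 for Gfap, -0.27 to 0.17 for Slc1a3 and -0.11 to 0.47 for Aqp4. The cause was not tested. Among the other named genes, Glul and, in both mutants, Pdyn kept their calls in every setting run, and those of Mlc1, Vim, Slc4a4, Pcsk1, Pcsk2 and Pam were lost in 1 or more. Calls were gained in 1 or more settings by Adm in both mutants against WT, by Fgf10 and Pam in p27-/-, by Vim, Tbx3, Oxtr and Gal (-1.27, adjusted p = 0.0170 with the replicate block) in p27-/-;Sox2+/-, and by Avpr1b in p27-/- and, with Gal, between the mutants.

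Samples sharing a replicate number did not deviate together: the correlation of their deviations ran from -0.238 to 0.182 over 9 pairs, with 1 over 0.1, against -0.191 to 0.265 for other pairs. The replicate block changed no call of the 8 genes.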
